A study of Mus musculus with 2 samples.

Results

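The 10 genes described here are genes of primordial germ cell specification and identity: *Dppa3*, *Prdm1*, *Prdm14*, *Ifitm3*, *Ifitm1*, *Tfap2c*, *Kit*, *Nanos3*, *Alpl* and *Dnd1*. They were chosen by name, as known germ cell genes, and each was found on the array through the RefSeq accession of its probe, so that the 10 genes stand among 20281 named genes. Each had 1 probe. The measured samples were 1 *Dullard* heterozygous and 1 *Dullard* homozygous RNA sample, both from whole C57BL/6 mouse embryos at E7.5. Each was hybridized to 1 Agilent 1-colour array. The paper does not state how many embryos gave each RNA, and the heterozygous or homozygous embryo below stands for that sample. *Dullard*, listed in current annotation as *Ctdnep1*, encodes a protein phosphatase of the endoplasmic reticulum and nuclear envelope. The heterozygous embryo, which carries a mutant allele itself, is the reference, and no wild-type embryo was arrayed. The study made a deletion allele and a *LacZ* allele and gave embryos of both the same name, and the sources used here do not say which of them the arrayed embryos carried. With 1 array per genotype no test was possible, so the values below compare 2 RNA samples, and the errors given are those of the array alone.

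Primordial germ cells are the founders of sperm and eggs. In the mouse, BMP signals from the extraembryonic tissue, together with WNT3, act on the proximal epiblast, and a small group of its cells switches on *Prdm1*, *Prdm14* and *Tfap2c*, which turn off the mesoderm programme and keep or regain pluripotency genes. These cells gather at the base of the allantois, stain for alkaline phosphatase and switch on *Dppa3*, and later migrate through the hindgut to the gonads. At E7.5 they are a minute part of the embryo, and most of the 10 genes are also active in other embryonic or extraembryonic cells.

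The signal of a probe is its fluorescence after the scanner software subtracted the background, in arbitrary units, and fold changes are homozygous over heterozygous, after each array was scaled to its 75th percentile, which was 286 and 264. The software marked 72.6% and 68.1% of the 43020 spots as well above background, and 14770 named genes had at least 1 probe so marked on both arrays; these are called measured. The probe of *Dullard* read 672 in the heterozygous and 144 in the homozygous embryo, with a log2 fold change of -2.11 ± 0.06, where the error is the SD between replicate spots of like brightness. It was 4.31-fold lower in the embryo labelled homozygous and remained well above background there. Per the paper, the deletion allele lacks every exon of the gene, and the *LacZ* allele lacks only some of them. Where the probe lies relative to the exons replaced in the *LacZ* allele was not determined. The paper found no *Dullard* mRNA in homozygous embryos of this stage by in situ hybridization or quantitative PCR.

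Of the 10 germ cell genes, 9 were measured on both arrays and *Prdm14* on neither. *Dppa3* was at least 2-fold lower in the homozygous embryo, and 0 genes of the list were at least 2-fold higher. Over all measured genes 0.765% were at least 2-fold lower and 0.894% at least 2-fold higher. The other 8 measured germ cell genes lay within 1.5-fold, a size that 3.37% of all measured genes passed downward and 3.92% upward, and 7 of these within 1.2-fold. Signs were mixed: 3 of the 9 had a negative and 6 a positive log2 fold change, against 48.0% negative over all measured genes. Their median was 0.02, beside 0.01 over all measured genes, and without *Dppa3* it was 0.03. In a whole embryo, fewer germ cells and less RNA per germ cell cannot be told apart, and a gene that other tissues also use can stay level while its germ cell part moves.

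**Figure D1:**
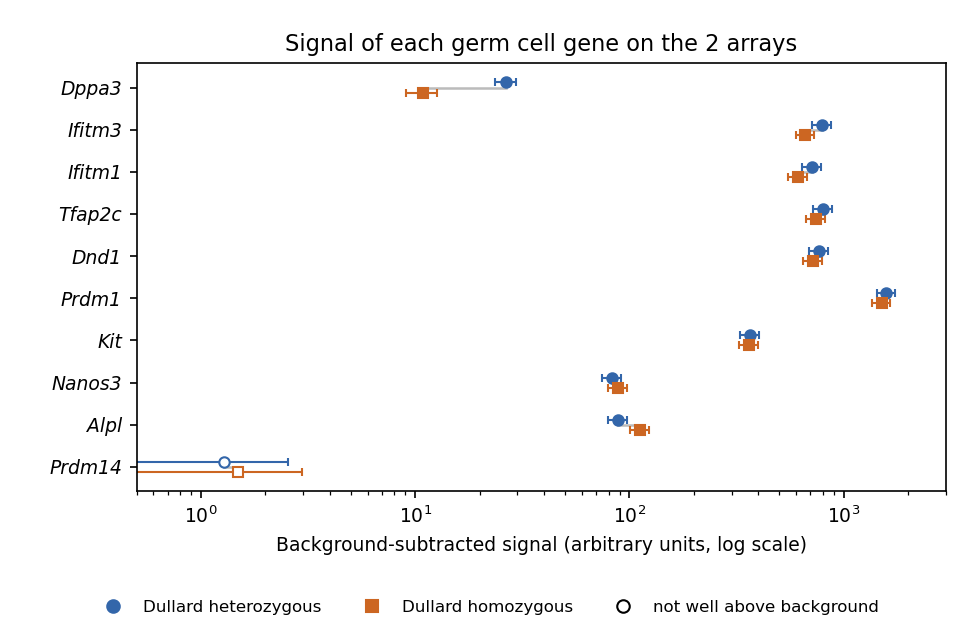
Background-subtracted signal (arbitrary units, log scale) of the probe of each germ cell gene in the heterozygous embryo (circles) and the homozygous embryo (squares), 1 array each, with bars for the error the scanner software gives. *Dppa3* stands apart with 26.5 against 10.9, the other measured pairs lie close together, and the open symbols of *Prdm14* are not well above background on either array.

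*Dppa3* (also called Stella or PGC7) encodes a small nuclear and cytoplasmic protein of oocytes, pluripotent cells and germ cells, which protects DNA from loss of methylation in the early embryo. Its probe, to NM_139218, read 26.5 ± 2.94 in the heterozygous and 10.9 ± 1.83 in the homozygous embryo, the errors being those of the scanner software. The signals do not overlap within these errors, and both were well above background, although the signal of the homozygous embryo was near the lowest that the software still marked so on that array, 7.27. The difference was 2.26-fold, with a log2 fold change of -1.17 ± 0.25 between replicate spots of like signal. With the software error of 0.29 in place of the spot error, 1 error either side spans 1.84-fold to 2.76-fold lower. *Dppa3* was in the dimmest of 4 equal groups of measured genes, where large ratios are most frequent: 2.19% of that group were at least 2-fold lower and 2.30% at least 2-fold higher. Of the 3693 genes in it, 46, or 1.25%, were as low as *Dppa3* or lower, and over all 14770 genes 64 were. A background correction that adds an offset of 50 to every signal, which is more than *Dppa3* read on either array, brought its log2 fold change to -0.20, and the other 9 settings gave -1.29 to -1.08.

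**Figure D2:**
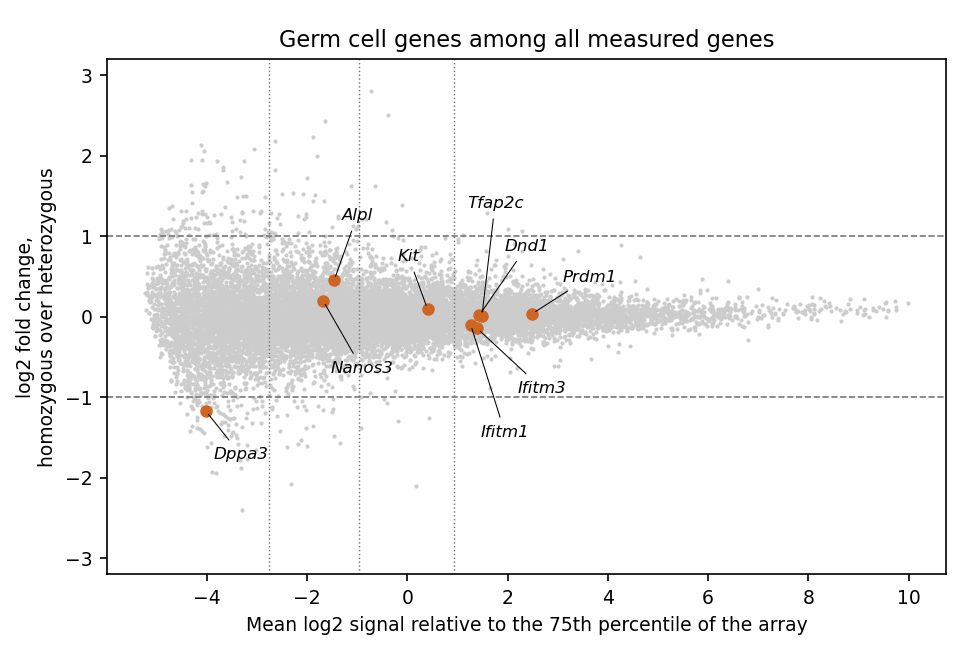
Log2 fold change (homozygous over heterozygous) of each of the 14770 measured genes (grey points) against its mean log2 signal relative to the 75th percentile of the array. Dashed lines mark 2-fold, dotted lines divide the genes into 4 equal groups by signal, and the 9 measured germ cell genes are named: *Dppa3* lies at -1.17 among the dim genes, whose SD of 0.47 compares with 0.17 in the brightest group.

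*Prdm1*, *Prdm14* and *Tfap2c* encode the transcription factors that together set the germ cell fate. PRDM1 (BLIMP1) is a repressor that shuts off somatic genes in the precursors and is also used by visceral endoderm and trophoblast. Its probe, to NM_007548, read 1585 in the heterozygous and 1504 in the homozygous embryo, a log2 fold change of 0.04 ± 0.05. *Tfap2c* encodes AP-2γ, which acts downstream of PRDM1 in germ cells and is a main factor of extraembryonic ectoderm and trophoblast. Its probe, to NM_009335, read 799.9 and 744, a log2 fold change of 0.01 ± 0.05. Neither gene differed between the embryos by more than the replicate-spot error, and the sign of the difference was negative under 2 of 10 other settings for *Prdm1* and under 4 of 10 for *Tfap2c*. *Prdm14*, a PR-domain factor that restores pluripotency and is nearly restricted to germ cells and pluripotent cells, read 1.28 and 1.49 (NM_001081209). It was not well above background on either array, so no fold is given.

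Among relatives of the factors, the AP-2 gene *Tfap2a*, which marks surface ectoderm, neural crest and trophoblast, was detected in the heterozygous embryo alone, on both of its probes. They read 31.8 and 11.7 there and 1.44 and 1.81 in the homozygous embryo. *Tfap2a* was thus at least 4.05-fold lower by the brighter probe and at least 1.48-fold lower by the other. *Tfap2d* was also detected in the heterozygous embryo alone, at 8.83 against 5.39, a bound of 1.12-fold lower. Its software error was 0.56 in log2, and the lowest signals marked as well above background were 6.20 and 7.27. *Tfap2b* and *Tfap2e* were not well above background on either array. Over all 20281 named genes, 903 were detected in the heterozygous embryo alone and 152 in the homozygous embryo alone. *Prdm8*, a PR-domain gene of the nervous system and retina, read 8.54 and 23.2, a log2 fold change of 1.55 ± 0.25. *Prdm8* and the receptor gene *Pdgfrb* were the 2 of 15 measured relatives of the germ cell genes that were at least 2-fold higher, and 0 of the 15 were at least 2-fold lower, with a median of 0.07.

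*Nanos3* and *Dnd1* encode RNA-binding proteins that keep germ cells alive during migration. NANOS3 represses translation of its target mRNAs, and its probe (NM_194059) read 83.2 in the heterozygous and 88.4 in the homozygous embryo. The log2 fold change was 0.20 ± 0.09 between replicate spots, within the software error of 0.21. DND1, which binds the 3′ ends of mRNAs and whose loss in the Ter strain causes germ cell loss and testicular tumours, read 769 and 722 (NM_173383). Its log2 fold change was 0.02 ± 0.05, within the replicate-spot error, and negative under 4 of 10 other settings. *Nanos1*, a relative used in the nervous system, had a log2 fold change of 0.07 ± 0.12. *Nanos2*, a factor of male germ cells, was detected in the heterozygous embryo alone at 9.18 against 5.61, a bound of 1.17-fold lower. Its signals were near the lowest marked as well above background, and its software error was 0.48 in log2.

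*Ifitm3* (fragilis) and *Ifitm1* encode interferon-inducible membrane proteins that mark the proximal epiblast region where germ cells arise, and the genes lie in a cluster on chromosome 7 in the order *Ifitm5*, *Ifitm2*, *Ifitm1*, *Ifitm3* and *Ifitm6*. The RefSeq promoters of *Ifitm3* (chr7:141010695-141010994, minus strand), *Ifitm1* (chr7:140967826-140968125, plus strand) and *Ifitm2* (chr7:140955912-140956211, minus strand), build GRCm38.p6, are shown to set the letters of neighbouring family members side by side. Each runs 5′ to 3′ from 250 bases before to 50 bases after the start of the gene, and capitals mark matches to the interferon response element, searched as GAAA, any 2 bases and GAAA, on both strands.
Ifitm3: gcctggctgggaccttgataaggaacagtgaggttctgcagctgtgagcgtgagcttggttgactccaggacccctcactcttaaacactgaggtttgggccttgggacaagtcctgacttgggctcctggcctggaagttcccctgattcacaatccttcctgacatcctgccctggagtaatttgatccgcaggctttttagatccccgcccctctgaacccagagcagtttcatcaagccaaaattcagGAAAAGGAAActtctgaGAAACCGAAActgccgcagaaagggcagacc
Ifitm1: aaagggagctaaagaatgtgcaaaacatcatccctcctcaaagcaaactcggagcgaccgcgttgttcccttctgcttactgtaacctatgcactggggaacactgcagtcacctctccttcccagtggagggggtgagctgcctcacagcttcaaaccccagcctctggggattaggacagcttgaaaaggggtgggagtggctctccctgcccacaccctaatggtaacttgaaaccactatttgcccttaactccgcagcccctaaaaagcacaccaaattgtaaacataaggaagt
Ifitm2: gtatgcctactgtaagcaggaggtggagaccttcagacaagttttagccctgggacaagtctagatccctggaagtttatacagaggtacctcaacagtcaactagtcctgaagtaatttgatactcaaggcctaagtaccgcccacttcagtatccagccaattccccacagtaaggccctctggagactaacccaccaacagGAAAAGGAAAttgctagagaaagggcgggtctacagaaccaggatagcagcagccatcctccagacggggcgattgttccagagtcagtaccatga
*Ifitm3* held 2 matches, whose first bases lie at positions 3 and 20 counted from the start site as 1, and *Ifitm2* held 1, before the start site. *Ifitm1* held 0. The element was in 3.44% of all 32851 promoters of this length. A match is a run of letters and not a measured binding site.

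*Ifitm3* is the best measured of the 10 genes, since its probe (NM_025378) was printed in 10 spots on each array. In the heterozygous embryo the spots read 726 at the lowest, 781 at the median and 884 at the highest. In the homozygous embryo they read 598, 655 and 735. After scaling, the mean was 2.77 ± 0.18 (SD, n = 10 spots) in the heterozygous and 2.51 ± 0.18 (SD, n = 10 spots) in the homozygous embryo. The ranges, 2.54 to 3.09 and 2.26 to 2.78, overlapped, with 6 spots of the homozygous array below the lowest of the heterozygous array. Paired by position, all 10 spots were lower, by a mean log2 fold change of -0.15 with an SD of 0.04 and a range of -0.20 to -0.08, or 1.11-fold. Replicate spots share 1 labelled RNA and measure the array alone, and the software error of the difference was 0.20.

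**Figure D3:**
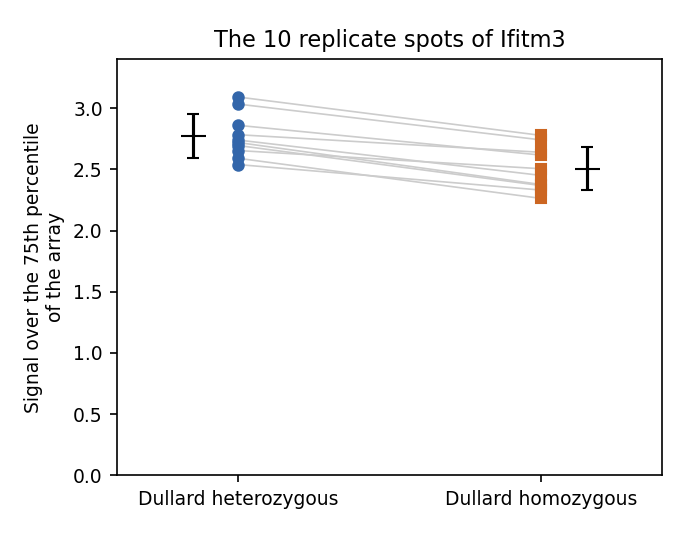
Signal of the 10 replicate spots of the *Ifitm3* probe relative to the 75th percentile of each array, in the heterozygous and the homozygous embryo, with lines joining spots at the same position and the mean ± SD beside them. All 10 lines slope down, from a mean of 2.77 to 2.51, and the ranges of the arrays overlap.

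*Ifitm1* (NM_001112715) read 710 and 614, a log2 fold change of -0.10 ± 0.05, and so was slightly lower as *Ifitm3* was, within the software error of 0.20. Its neighbour *Ifitm2* read 1044 and 1003, with 0.06 ± 0.05, and *Ifitm5*, a gene of bone-forming cells, 28.6 and 33.2, with 0.33 ± 0.19. Of the 6 family members with a named probe, 4 were measured, 0 were past 2-fold in either direction and the median was -0.02. *Ifitm6* and *Ifitm10* were not well above background on either array, and *Ifitm7* had no named probe.

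*Kit* and *Alpl* encode cell-surface proteins used to find and sort germ cells. KIT, the receptor tyrosine kinase for KIT ligand, had signals of 366 in the heterozygous and 361 in the homozygous embryo (NM_001122733). The log2 fold change was 0.09 ± 0.06, and it was slightly negative, at -0.02, without scaling between the arrays. *Kitl*, which encodes the ligand that germ cells need for survival and movement, read 267 and 180, a log2 fold change of -0.46 ± 0.07, and was thus 1.37-fold lower. Of receptors of the same class, *Pdgfra*, which lies beside *Kit*, had 0.46 ± 0.06, and *Pdgfrb* read 39.2 and 196, a log2 fold change of 2.44 ± 0.09. *Csf1r* had 0.09 ± 0.06, and *Flt3*, dim and measured on 1 of its 2 probes, was lower at -0.31 ± 0.23.

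*Alpl* encodes the tissue-nonspecific alkaline phosphatase, the enzyme behind the classical stain of germ cells, which epiblast and other embryonic cells carry as well. Its probe (NM_007431) read 88.8 in the heterozygous and 112 in the homozygous embryo, a log2 fold change of 0.45 ± 0.09. *Alpl* was the highest of the 9 genes, at 1.37-fold, and with 1 software error either side this spans 1.19-fold to 1.58-fold higher. Of all measured genes 970, or 6.57%, were as high or higher, and under the other 10 settings *Alpl* lay between 0.29 and 0.49. The intestinal-type relative *Akp3* had 0.23 ± 0.18, and *Alpi* was not well above background on either array. Promoters in RefSeq were at hand for 6 of the 10 genes, 8 in all. Of these, 1, of *Alpl*, held the T-box motif TCACAC, which 14.5% of all promoters hold, and 0 held the TCF/LEF site CTTTGAT (3.73%) or the octamer ATTTGCAT (1.74%), both strands searched.

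**Figure D4:**
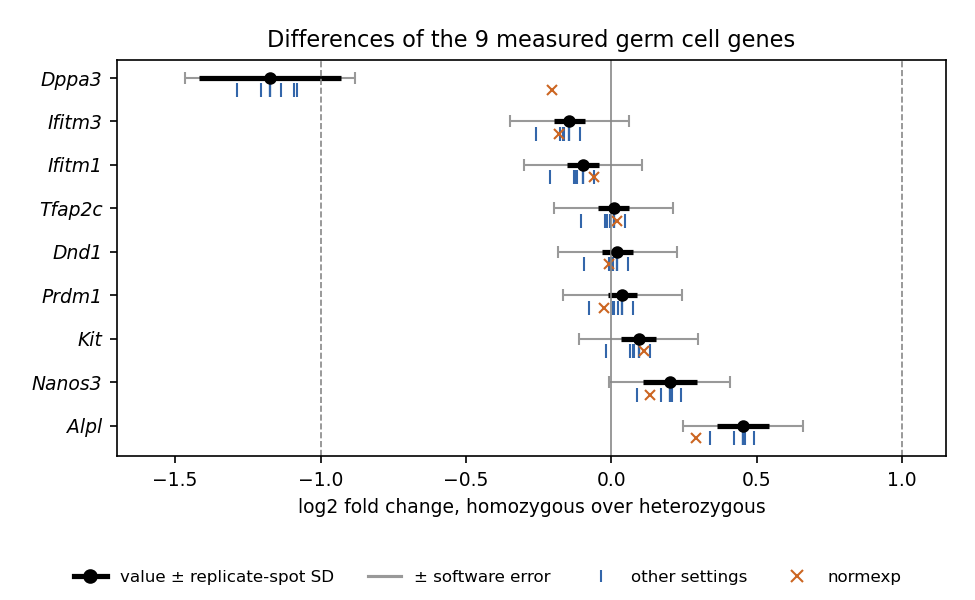
Log2 fold change (homozygous over heterozygous) of each of the 9 measured germ cell genes, with the SD of replicate spots of like signal (thick bars) and the wider error of the scanner software (thin bars), the values under other settings as ticks, those with the offset of 50 as crosses, and 2-fold as dashed lines. *Dppa3* at -1.17 and *Alpl* at 0.45 are the 2 whose distance from 0 is larger than the software error, and the signs of *Prdm1*, *Tfap2c*, *Dnd1* and *Kit* changed under at least 1 other setting.

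Against both wider errors, that of the scanner software and the pooled SD of 0.29 between different probes of a gene, 2 of the 9 genes differed by more than the error, *Dppa3* downward and *Alpl* upward. Against the replicate-spot error 6 did, with *Ifitm3*, *Ifitm1*, *Kit* and *Nanos3* added. None of these errors holds the spread between embryos.

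The signals that induce germ cells were read from a list of 14 genes, all measured. *T* (Brachyury), the T-box factor that WNT3 switches on and that acts on *Prdm1* and *Prdm14*, read 152 in the heterozygous and 61.8 in the homozygous embryo, a log2 fold change of -1.19 ± 0.09. It was the 1 of the 14 that was at least 2-fold lower, and 0 were at least 2-fold higher, with a median of 0.10. *Wnt3* read 326 and 484, a log2 fold change of 0.68 ± 0.06, so this ligand gene was higher in the embryo in which *T* was lower. The related ligand gene *Wnt3a* read 23.0 and 11.1, with -0.94 ± 0.25, and *Lef1*, which encodes a nuclear factor of WNT signals, had -0.34 ± 0.10. *Bmp4*, which encodes the inducing ligand of the extraembryonic ectoderm, read 1581 and 1384 on its bright probe, a log2 fold change of -0.08 ± 0.05. Its other probe was near the lowest measurable signal, at 13.7 and 8.61 with -0.55 ± 0.25, and the mean of the probes was -0.32. *Smad1* and *Smad5*, which encode the transducers of BMP signals, had 0.31 ± 0.04 and 0.15 ± 0.05.

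Of posterior mesoderm genes that PRDM1 represses in germ cell precursors, 7 of 8 were measured, and 1 was at least 2-fold lower. This was *Cdx1*, which encodes a homeodomain factor of the posterior body axis, at 52.7 against 19.6 with a log2 fold change of -1.32 ± 0.18. None of the 7 was at least 2-fold higher, and the median was -0.015. At 1.5-fold, 2 were higher: *Fgf8*, a growth factor gene of the primitive streak, at 0.94 ± 0.09 with all 3 of its probes higher, and *Snai1*, a repressor of epithelial genes, at 0.72 ± 0.09. Of 13 pluripotency genes that germ cells share with the epiblast, *Klf2* was at least 2-fold lower, at 133 against 55.3 with -1.16 ± 0.09, and 0 were at least 2-fold higher, with a median of -0.06. *Pou5f1*, the factor that both epiblast and germ cells need, read 3052 and 2714, a log2 fold change of -0.06 ± 0.04. With the offset of 50 described for *Dppa3*, *T*, *Cdx1* and *Klf2* all lay within 2-fold.

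Of 10 genes of germ cell migration, adhesion and survival, 0 were at least 2-fold lower and 1 at least 2-fold higher, with a median of 0.00. This was *Cxcr4*, the chemokine receptor that guides germ cells to the gonad and that mesoderm and endoderm of this stage also carry, at 787 against 1546 with 1.09 ± 0.05, and without scaling between the arrays it lay within 2-fold. Of 14 measured genes of chromatin and DNA methylation used in germ cell reprogramming, 0 were past 2-fold in either direction. *Wdr77*, the partner of the methyltransferase PRMT5, had the lowest mean at -0.31, from 2 probes that differed (-0.52 and -0.10), and was not the lowest by its brightest probe. The methyltransferase gene *Dnmt3a* was the highest at 0.30 ± 0.06, and the median was 0.09. Genes of later germ cells were mostly dim, and 4 of 10 were measured, with 0 past 2-fold and a median of -0.07. *Ddx4* (Vasa), an RNA helicase of germ cells, was the lowest of these, at 253 against 200 with -0.23 ± 0.07, and *Piwil2* the highest, at 7.62 against 8.03 with 0.19 ± 0.25.

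**Figure D5:**
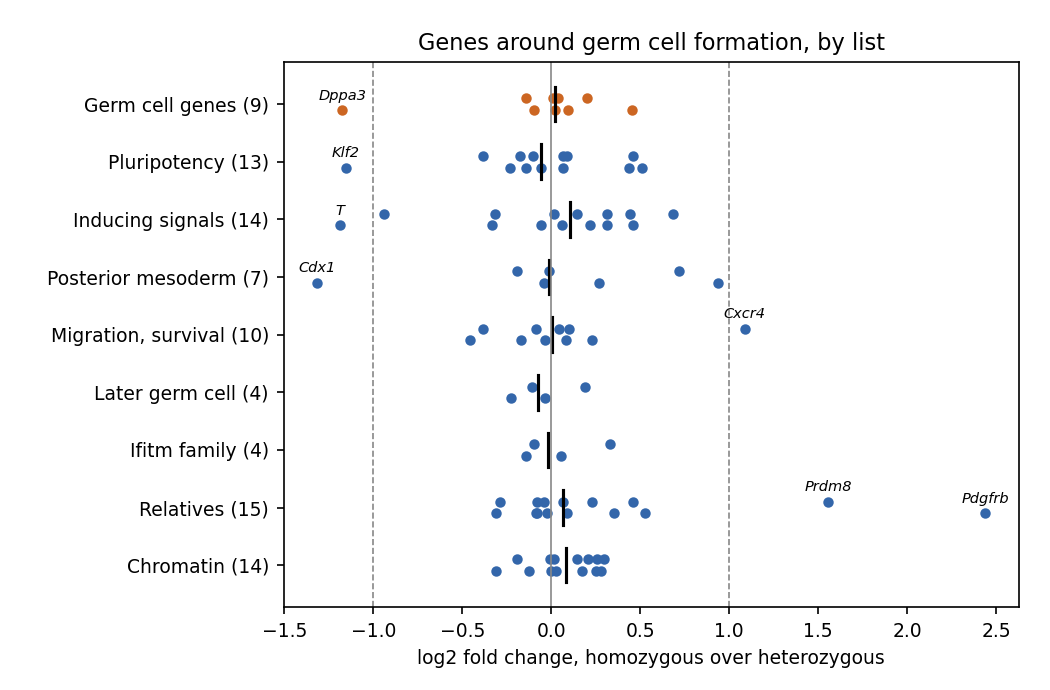
Log2 fold change (homozygous over heterozygous) of the measured genes (points, their number in brackets) of each list around germ cell formation, with the list median as a black bar and 2-fold as dashed lines; genes past 2-fold are named. The medians lie between -0.07 and 0.10. *Dppa3*, *Klf2*, *T* and *Cdx1* lie at least 2-fold lower, and *Pdgfrb*, *Prdm8* and *Cxcr4* at least 2-fold higher.

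Other tissues of the embryos were read from marker lists, and their part in the values of the germ cell genes was not tested. All 9 visceral endoderm markers were measured and within 1.5-fold by gene mean, from *Cubn* at -0.34 to *Afp* at 0.27 ± 0.05, with a median of -0.07. The 2 probes of *Cubn* differed, at -0.60 and -0.09. The summed signal of the 9 markers was 28822 in the heterozygous and 25989 in the homozygous embryo, a ratio of 0.975 after scaling. Of 8 trophoblast markers 7 were measured, with 1 at least 2-fold higher, 0 at least 2-fold lower and a median of -0.04. The higher one was *Prl3d1*, a gene of giant cells, at 17.4 against 33.8 with 1.07 ± 0.21 on 1 probe, the other being below background, and *Ascl2* was the lowest at -0.74 ± 0.09. *Tpbpa* was not well above background on either array, and the summed trophoblast signal was 2081 and 1951, a scaled ratio of 1.01. Of 5 allantois markers, the tissue at whose base germ cells gather, *Foxf1* (0.05 ± 0.09) and *Hand1* (-0.10 ± 0.06) were measured, the other 3 were not well above background on either array, and the sum was 464 and 408, a scaled ratio of 0.951. Of 6 markers of embryonic red blood cells 3 were measured, and 2 of these were at least 2-fold lower: the embryonic globin gene *Hbb-bh1*, at 117 against 25.6 with -2.08 ± 0.12, and *Gata1*, the factor of red cell precursors, at 394 against 148 with -1.30 ± 0.07. The summed signal was 583 and 219, a scaled ratio of 0.406. The 4 adult globin genes summed to 561 and 205, a scaled ratio of 0.395, and whether they came from the embryo or the mother cannot be told apart. *Hba-a2* was at least 2-fold lower, at -1.38 ± 0.08, *Hba-a1* had -0.95 ± 0.08, and *Hbb-bt* and *Hbb-bs* were well above background in the heterozygous embryo alone. Of 5 decidua markers, those of the mother's tissue, *Des* and *Pgr* were measured and within 1.5-fold. *Pgr* had -0.55 ± 0.22 on 1 probe, and its other was detected in the homozygous embryo alone. *Prl3c1* was detected on 1 probe in each embryo, not the same probe, and *Prl8a2* and *Dcn* were not well above background on either array. The sum, in part of signals not well above background, was 61.9 and 52.2, a scaled ratio of 0.912.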

How the data were processed

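Total RNA of 1 heterozygous and 1 homozygous sample was labelled with Cy3 and hybridized to 1 array each. Both arrays were on the same slide and in the same scan. The labels give 0.1 µg of RNA and the Low Input Quick Amp kit, whereas the study's methods name another kit and a smaller input. Per the labels, the authors extracted spot intensity values with Agilent Feature Extraction 10.10, and the deposited intensity values are already background-subtracted; the deposited value table holds the same intensity times a constant per array and served as an alternative. The array number limits the precision to that of 2 single samples.

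The values used are log2 of the intensity minus log2 of the 75th percentile of the array over 43020 spots that are not controls, without the 206 spots marked as outliers on either array. Spots of a probe were averaged. Each gene's log2 fold change averages those of its probes that both arrays show well above background. Where a gene was well above background on 1 array alone, its fold is a lower bound against its own signal on the other array or, if that is higher, the dimmest signal there that counts as well above background. The spot error pools the 40 replicated probes nearest in signal, out of 286 with at least 3 spots. For a gene with several probes, the mean square of their errors was divided by their number before the root was taken. This error leaves out differences between the probes of a gene. Symbols came from RefSeq (GRCm38.p6) through accessions, which named 30235 spots and left 12785 unnamed. Genes were counted at 2-fold, with 1.5-fold as a second size, and no test was run.

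The 10 genes and the lists were chosen with earlier results of these data known, and 1 listed posterior mesoderm gene is not reported here, for a reason that does not concern its value. Named are the 10 genes, the genes past 2-fold (at most 4) of each gene list, or else its highest and lowest, and *Pou5f1*, *Bmp4*, *Smad1*, *Smad5*, *Wnt3*, *T* and *Dullard*; other genes of the families, ligands, markers and neighbours were chosen after their values were seen. Simulated arrays with known changes served to check the steps. Python 3.11.15, numpy 2.4.6, pandas 2.3.3, matplotlib 3.10.9, R 4.3.3 and limma 3.58.1 (normexp, quantile and loess, span 0.3) were used.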

Additional observations from a re-analysis of the deposited data

How the results depend on the processing

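The values of the germ cell genes, the counts of the gene lists around them and the counts over all genes were recomputed under 10 alternatives (bounds, marker sums and neighbours were not): scaling to the median, no scaling, quantile normalization, loess, normexp (offset 50) on median signals, the deposited value table, all probes however dim, the brightest probe, the mean of linear folds, and outlier spots kept. Under normexp, whose offset by construction shrinks the ratios of dim probes, 5 of all genes were at least 2-fold lower and 10 at least 2-fold higher, the germ cell genes at least 2-fold lower numbered 0, as did those of the pluripotency, posterior mesoderm and inducing signal lists, and 1 of the relatives was at least 2-fold higher. Without scaling, which lowers every log2 fold change by 0.11, the median of the germ cell genes was -0.092 and that of all genes -0.10, 2 inducing signal genes were at least 2-fold lower, and 0 migration genes were at least 2-fold higher. Without the filter on dim probes, 778 of 20281 genes were at least 2-fold lower and 484 higher, with 3 relatives and 2 posterior mesoderm genes lower and 1 later germ cell gene higher. Of all genes past 2-fold, 53.9% were higher, against 35.3% without scaling, 66.7% under normexp and 38.4% without the filter. *Dppa3* was at least 2-fold lower under 9 of the 10 alternatives, all but normexp, and 0 germ cell genes were at least 2-fold higher under any. With 1 array per genotype no replicate could be left out, and with 1 slide no slide effect could be fitted. No paired analysis was possible either, since each genotype had 1 array. Each germ cell gene rests on 1 probe, so probe faults cannot be told apart from expression, and *Dppa3* is near the lowest measurable signal.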

Other observations

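The genes beside the 10 germ cell genes on the chromosomes, 3 protein-coding genes on each side by their order in the RefSeq gene table, were read after the values of the 10 genes were seen. Of 54 such genes 47 were measured, with a median log2 fold change of -0.02, 1 at least 2-fold lower and 2 at least 2-fold higher. The lower one was *Apobec1*, an RNA-editing cytidine deaminase gene 2 places from *Dppa3*, at 36.2 in the heterozygous and 13.5 in the homozygous embryo, a log2 fold change of -1.31 ± 0.22. Between them lies *Gdf3*, a TGF-β family ligand gene of pluripotent cells, at 74.8 and 58.5 with -0.24 ± 0.11. On the other side of *Dppa3*, the pluripotency gene *Nanog* had 0.09 ± 0.04, the glucose transporter gene *Slc2a3* -0.12 ± 0.04 and *Foxj2* 0.30 ± 0.09. The 2 higher neighbours were *4930432K21Rik*, beside *Nanos3*, at 9.56 against 27.7 with 1.65 ± 0.25, and *A830018L16Rik*, near *Prdm14*, at 13.05 against 24.4 with 1.01 ± 0.24. These 2 genes and *Apobec1* lay in the same dimmest group of measured genes as *Dppa3*. In that group 2.19% were at least 2-fold lower and 2.30% at least 2-fold higher, against 0.765% and 0.894% over all measured genes. Whether the place of these neighbours on the chromosome played a part was not tested. Beside *Kit*, on the side away from *Pdgfra*, lies *Kdr*, the VEGF receptor gene of blood and vessel precursors, at 774 against 945 with 0.64 ± 0.04 over 2 probes. Both the signals and the log2 fold change are means over the probes, so the fold does not follow from the mean signals. The error leaves out the difference between the probes, and the pooled SD between probes of a gene was 0.29.

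Of the later germ cell genes that were not measured on both arrays, *Dazl*, which encodes an RNA-binding protein of germ cells that have reached the gonad, was detected in the homozygous embryo alone, at 2.36 against 11.02, at least 1.92-fold higher. *Stk31* was too, at 5.12 against 9.17, at least 1.60-fold higher. *Mael*, a factor of the piRNA pathway, was detected in the heterozygous embryo alone, at 12.7 against 8.39. The lowest signals marked as well above background were 6.20 in the heterozygous and 7.27 in the homozygous embryo. Software errors in log2 were 0.98 for *Dazl*, 0.48 for *Stk31* and 0.39 for *Mael*, and the bounds leave these errors out. Over all named genes, 903 were detected in the heterozygous embryo alone and 152 in the homozygous embryo alone. *Tdrd1*, *Tdrd9* and *Hormad1* were not well above background on either array.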
